A study of Oryza sativa Japonica Group with 6 samples.

Results

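Brassinosteroid synthesis and signalling genes of rice were followed through 9 loci: the synthesis genes D2, D11, DWARF4 and BRD1, the receptor gene BRI1 and its co-receptor gene BAK1, and the genes BZR1, BU1 and DLT, which act on transcription downstream. They were taken by locus identifier from the 28855 loci on the array, and 17 of its 42429 probes belong to them. The arrays compared samples labelled as leaf blades of 2 kinds of Nipponbare rice seedlings at the four-leaf stage, grown untreated at 25 °C. Of the 6 arrays, 3 were wild type and 3 were Line 13, a single transgenic line labelled as accumulating linalool and described as overexpressing a linalool synthase, the enzyme that makes this monoterpene alcohol. The sources used here do not name the promoter that drives the transgene. The labelled tissue was the fourth-leaf blade, each array held RNA pooled from at least 3 plants, and no allele or agent is named for the wild type.

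Brassinosteroids are plant steroid hormones that promote cell elongation and division and, in rice, set plant height and the angle at which the leaf blade bends away from the sheath. They are made from sterols by a chain of reductases and cytochrome P450 enzymes, bind the receptor kinase BRI1 at the cell surface together with co-receptor kinases such as BAK1, and switch off the GSK kinases, which otherwise phosphorylate and restrain BZR1 and DLT. Active BZR1 is known to repress several synthesis genes, so that the hormone limits its own production.

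Of the 9 genes, 6 were higher and 1 was lower on the Line 13 arrays, and D2 and BAK1 did not pass the test. The rises were those of the synthesis genes D11 and BRD1, the receptor gene BRI1, and all 3 transcriptional genes. Among them, BU1 lost its call under another background correction. DWARF4 was the one gene that fell. The test was limma on log2 signals scaled to each array's 75th percentile, over 22232 features, with a Benjamini-Hochberg adjusted p under 0.05 as the threshold. Among all features tested 26.8% were higher, 28% were lower and 54.7% were called in either direction, so that a call by itself was common on these arrays. The median log2 difference of the 9 genes was 2.29, and that of all features tested was -0.071. The groups did not overlap for 7 of the 9 genes, against 68.5% of all features.

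**Figure D1:**
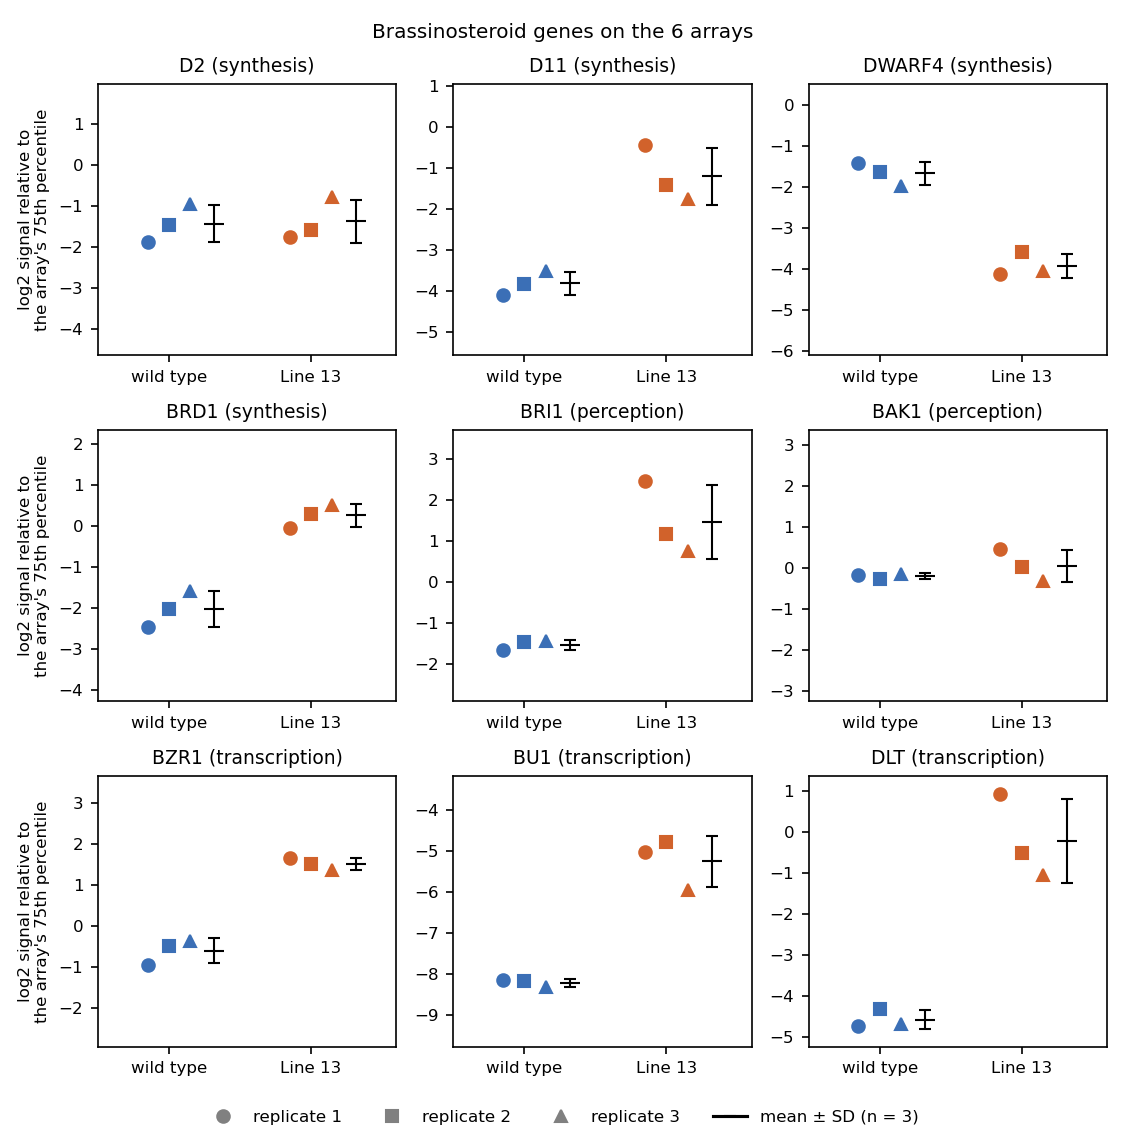
Log2 signal, scaled to the array's 75th percentile (vertical axis), of each of the 9 genes on the 3 wild-type arrays (blue) and the 3 Line 13 arrays (orange), 1 panel a gene, with marker shapes for the replicates and the black bar for the mean ± SD. Each panel spans an equal range of log2 units but is centred on its own gene, since levels of different probes are not comparable, and the groups overlap only for D2 and BAK1.

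All wild-type arrays were on 1 slide and scan and all Line 13 arrays on another, so slide and group cannot be told apart. The 75th percentile of the processed signal ran from 325 intensity units on Line 13 replicate 1, the dimmest of the 6 arrays, to 1559 on Line 13 replicate 2. On the 6 arrays 72.0% to 86.4% of spots were well above background. Across genes, which are not independent replicates, Line 13 arrays correlated with each other at 0.902 to 0.979, the lower values being those of Line 13 replicate 1. The locus of linalool synthase, Os02g0121700, differed by -3.43 on the log2 scale, Line 13 minus wild type (SE 0.90, limma adjusted p = 0.0185), against the label of an overexpressing line. Its replicates were widely spread, at -3.32, -0.92 and -1.50 in wild type against -6.52, -5.84 and -3.65 in Line 13. Of those Line 13 arrays, 2 were well above background. Each direction below is therefore a direction between the libraries labelled Line 13 and the libraries labelled wild type. The sources used here do not say whether its 1 probe covers the transgene. Marker lists also moved with the labels. Of 5 green-leaf markers, each detected on all 6 arrays as in a leaf blade, 4 were lower, and their summed level, in multiples of the 75th percentile, was 883 to 1184 on wild-type and 287 to 620 on Line 13 arrays. All 4 dividing-cell markers were higher, with sums of 0.492 to 0.765 and 5.92 to 10.6, and 2 of them were well above background on no wild-type array. Both root markers were higher and were well above background on no wild-type array, with sums of 0.00743 to 0.0145 and 24.5 to 29.5. Nearly all of the Line 13 sum came from the marker RCc2, with log2 signals of 4.70, 4.60 and 4.88. The other, RCc3, was dim there, at -4.50, -1.88 and -5.96. Whether the RNA of the Line 13 arrays came from the labelled tissue cannot be settled with the files used here. Of 5 shoot meristem markers, 3 could be tested and 2 were higher, both of them well above background on no wild-type array. The sums of the 5 overlapped between the groups, at 0.0425 to 0.101 and 0.0792 to 1.22, the highest being that of Line 13 replicate 2. The part of these shifts in the brassinosteroid results was not tested, and a change in the share of a cell type cannot be told apart from a change in RNA per cell.

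The synthesis genes did not move as a group. D11 (Os04g0469800), a cytochrome P450 that hydroxylates the side chain of the sterol precursors, had log2 signals of -4.08, -3.84 and -3.52 on wild-type replicates 1 to 3 and -0.43, -1.41 and -1.76 on Line 13 replicates 1 to 3. All Line 13 values lay above all wild-type values, and Line 13 replicate 1 was the highest. The difference of 2.61 on the log2 scale (SE 0.38, limma adjusted p = 0.00181) is a 6.12-fold higher signal, and it was 1.72, a 3.29-fold higher signal, with a normexp background correction. This is 1 of 4 probes of the locus, which are matched to transcript models 01, 02 and 03. All 4 were called higher when each probe was fitted on its own, with differences from 2.06 to 2.61, so that the probe of model 03 used for the locus was the one with the greatest difference. In that fit 54.1% of 33341 probes were called.

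BRD1 (Os03g0602300), the oxidase of the last steps that yield castasterone, the main active brassinosteroid of rice, had log2 signals of -2.46, -2.03 and -1.58 on the wild-type arrays. The Line 13 arrays gave -0.035, 0.31 and 0.52. Here the Line 13 replicate that was highest for D11 was the lowest of its group, though still above every wild-type array. The gene was 4.88-fold higher (log2 difference 2.29, SE 0.29, limma adjusted p = 0.00105). Its 3 probes all match transcript model 01, and all were called higher, by 1.58 to 2.29. The least of these, 1.58 (SE 0.49, limma adjusted p = 0.0330), came from the probe with the widest spread between replicates of either group.

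DWARF4 (Os03g0227700), a close relative of D11 that hydroxylates the same side chain, went the other way. Log2 signals were -1.41, -1.62 and -1.96 in wild type against -4.11, -3.58 and -4.05 in Line 13. The groups lay apart, every Line 13 array below every wild-type array, and the replicates within a group were close. It fell by 2.25 on the log2 scale (SE 0.24, limma adjusted p = 0.000562), to a 4.76-fold lower signal, and only 6.87% of all features tested had a lower difference. A single probe, which comes from an expressed sequence tag and is matched to transcript model 01, represents the locus. Each array detected it above background, but it was dim on those of Line 13, where the processed signals were 18.9, 130 and 56.1 units against 246 to 288 in wild type. Under the normexp background correction the difference was -1.39, a 2.63-fold lower signal. That correction adds an offset of 50 units to every signal, which by itself makes the differences of dim probes smaller.

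D2 (Os01g0197100), a cytochrome P450 of the later steps, showed no shift beyond the spread of its replicates. The arrays gave log2 signals of -1.86, -1.46 and -0.95 in wild type against -1.75, -1.58 and -0.77 in Line 13. The 2 groups covered nearly the same range, and the difference was 0.055 (SE 0.36, limma adjusted p = 0.906). Its sign turned to -0.26 when arrays were scaled to their medians and to -0.096 under quantile normalization. Its probe comes from an expressed sequence tag rather than a full transcript.

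Ratios within an array do not depend on the scaling between arrays, and they showed the divergence among the synthesis genes directly. The pairs were chosen after the values were seen, so they are given as a description. The ratio of D11 to DWARF4 was 29.1-fold higher on the Line 13 arrays, 4.86 on the log2 scale, with SDs of the log2 ratio of 0.56 among wild-type and 0.84 among Line 13 arrays. The ratio of BRD1 to DWARF4 was 23.2-fold higher (4.54). That of BRD1 to D2 was 4.70-fold higher (2.23), with an SD among wild-type arrays of 0.029 for the BRD1 probe used for the locus. Another BRD1 probe was not in step with D2 there. It had log2 signals of -3.33, -1.86 and -2.61 on wild-type replicates 1 to 3, against -1.86, -1.46 and -0.95 for D2. In each of these pairs the ratios of the 2 groups did not overlap. Under the normexp background correction the ratio of D11 to DWARF4 was 8.63-fold higher and that of BRD1 to DWARF4 10.2-fold higher, with the groups still apart.

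**Figure D2:**
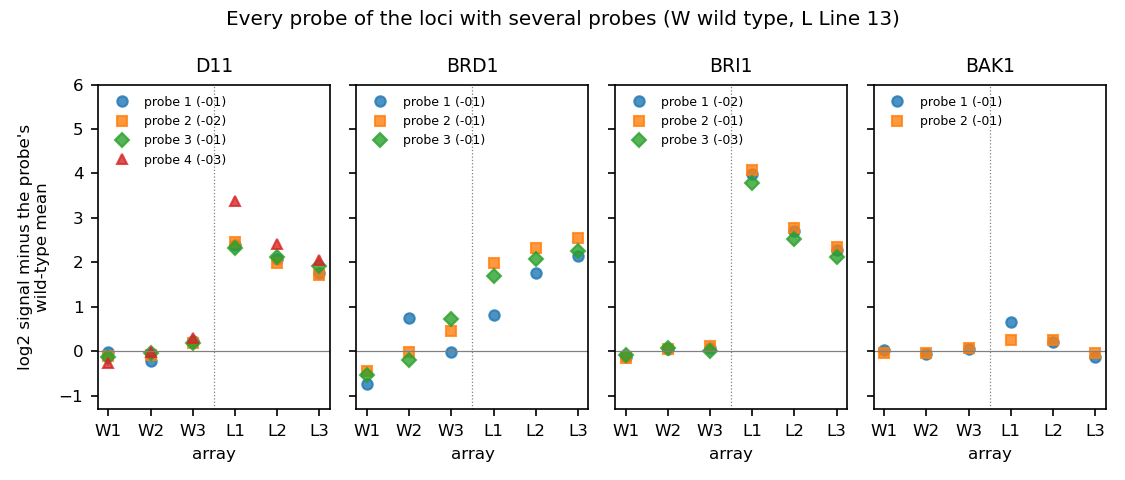
Log2 signal of every probe of D11, BRD1, BRI1 and BAK1 minus the wild-type mean of that probe (vertical axis), on wild-type arrays W1 to W3 and Line 13 arrays L1 to L3, with the transcript model of the probe in the legend. Probes of a locus lie close together on each array, except for D11 probe 4 on L1 and BRD1 probe 1.

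BRI1 (Os01g0718300), the receptor kinase that binds the hormone, was among the larger rises. Its log2 signals were -1.68, -1.48 and -1.45 in wild type against 2.45, 1.16 and 0.74 in Line 13. The wild-type arrays were tightly grouped (SD 0.12) and the Line 13 arrays were not (SD 0.89), with replicate 1 the highest. The rise of 2.99 on the log2 scale (SE 0.44, limma adjusted p = 0.00200) is a 7.93-fold higher signal, and 90.1% of features tested had a lower difference. Without Line 13 replicate 1 it was 2.49. Its 3 probes, matched to transcript models 01, 02 and 03, were all called higher, by 3.07, 2.99 and 2.80, and each was highest on Line 13 replicate 1. A difference between the transcript models was therefore not visible with these probes.

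BAK1 (Os08g0174700), the co-receptor kinase, did not follow. Its log2 signals were -0.18, -0.28 and -0.15 in wild type against 0.45, 0.007 and -0.33 in Line 13, which lay on both sides of the wild-type values. The difference was 0.25 (SE 0.24, limma adjusted p = 0.414), and the second probe gave 0.16 (SE 0.18, limma adjusted p = 0.489). The sign turned, to -0.066, with arrays scaled to their medians. The BRI1 to BAK1 ratio was 6.68-fold higher on the Line 13 arrays, 2.74 on the log2 scale, with SDs of 0.15 and 0.52 among the 2 groups, so that the genes of the receptor and of its co-receptor changed unequally whatever the scale.

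All 3 genes that act on transcription were called higher, though BU1 was not under the normexp background correction. BZR1 (Os07g0580500), the transcription factor that the GSK kinases restrain, had log2 signals of -0.94, -0.48 and -0.35 in wild type against 1.67, 1.53 and 1.37 in Line 13. Its Line 13 replicates were the closest of the 9 genes (SD 0.15). The difference of 2.11 (SE 0.23, limma adjusted p = 0.000522) is a 4.32-fold higher signal, and it moved least between processing choices, from 1.80 to 2.23.

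DLT (Os06g0127800), a GRAS-family protein that promotes brassinosteroid responses and is a substrate of GSK2, had the largest difference of the 9 genes. Its wild-type log2 signals were -4.72, -4.31 and -4.67. The Line 13 arrays gave 0.94, -0.50 and -1.05, all far above the wild type but spread more widely, with replicate 1 at the top. It was 20.6-fold higher (log2 difference 4.37, SE 0.50, limma adjusted p = 0.000724). In processed signal units, before any scaling between arrays, the wild-type values were 27.2, 44.5 and 37.6 and the Line 13 values 624, 1105 and 451. Thus the low side was dim but well above background. The difference was 3.80 without Line 13 replicate 1 and 2.96 with another background correction, and it stayed past the threshold under both.

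BU1 (Os06g0226500), a small helix-loop-helix protein that promotes bending of the leaf blade, had no wild-type array on which it was well above background. The log2 signals there were -8.16, -8.18 and -8.33, and they give only a bound. The Line 13 arrays gave -5.03, -4.79 and -5.97, well above background on all 3, so that the gene was detected under one label only. Detection was not equally sensitive under the 2 labels. The lowest signal of a spot well above background was 11.7 to 14.1 units on wild-type and 6.62 to 7.97 on Line 13 arrays. The BU1 signal of Line 13 replicate 1, 9.98 units, lay below all the wild-type floors. In the processed signal, the level of BU1 was at least 1.69-fold higher on the Line 13 arrays. The gene passed the filter only through those arrays, and its limma adjusted p of 0.000628 rests on wild-type values not well above background. The bound sets the Line 13 mean against, on each wild-type array, the lowest signal of any spot well above background or the probe's own signal, whichever was higher. The measured means were -5.26 and -8.22. With a normexp background correction the difference was 0.50, a 1.41-fold higher signal, which is below that bound. The processed signals were 2.52 to 3.04 units in wild type and 9.98, 56.5 and 14.9 in Line 13. That correction adds an offset of 50 units to every signal, so part of the smaller fold is built in. The call was then lost (limma adjusted p = 0.281), so that the rise rests on how dim signals are treated.

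A two-sided exact permutation test reached p = 0.1 for each of the 7 called genes, which is the lowest value possible with 3 arrays a group. Of the 6 higher genes, 4 had their highest Line 13 value on replicate 1, which is 66.7%, close to the 67.2% of all 5949 features called higher with a value on every array.

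**Figure D3:**
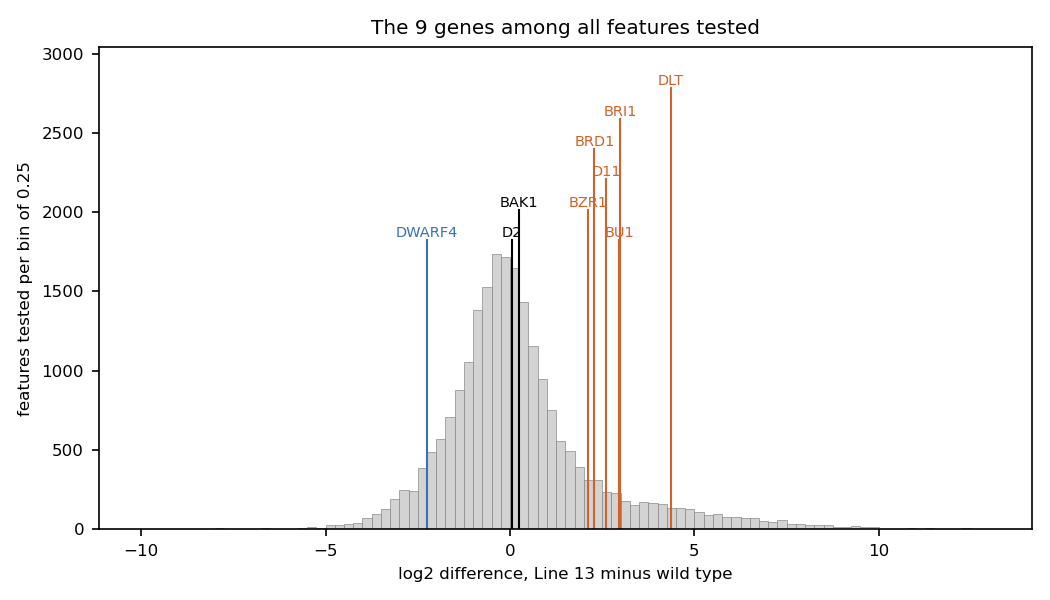
Number of features per bin of the log2 difference, Line 13 minus wild type (horizontal axis), over all 22232 features tested (grey), with the 9 genes as vertical lines, orange where called higher, blue where called lower and black where not called. The lines differ in height only to separate the names. The 6 higher genes lie in the right shoulder of the distribution, from 2.11 for BZR1 to 4.37 for DLT, and DWARF4 lies at -2.25.

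The rest of the pathway was read from 26 further loci with a probe, grouped by role, of which 25 could be tested. Of these, 9 were higher, 3 were lower and 13 were not called, with a median log2 difference of 0.34 beside -0.071 for all features tested. The share of calls, 12 of 25, was thus not above the 54.7% of all features. Of the 9 higher genes, 8 were highest on Line 13 replicate 1.

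Among 5 other synthesis genes, 3 rose and none fell. BRD2 (Os10g0397400), the reductase that supplies the sterol precursor, had log2 signals of -1.62, -1.70 and -1.60 in wild type against 2.60, 1.98 and 1.54 in Line 13. It was 12.8-fold higher (log2 difference 3.68, SE 0.29, limma adjusted p = 0.000149), a larger difference than that of D11 or BRD1. CPD1 (Os11g0143200) and CPD2 (Os12g0139300), cytochrome P450s of the CYP90A subfamily, rose together by 1.58 (SE 0.17) and 1.28 (SE 0.17). They are close copies of each other, and whether their probes tell them apart was not tested. The steroid reductase gene DET2 (Os01g0851600) had a difference of 0.19 (SE 0.28). CYP90D3 (Os05g0200400), the close relative of D2, had -0.73 (SE 0.76) with one Line 13 array not well above background, and neither passed the test.

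The CYP734A enzymes, which inactivate brassinosteroids by hydroxylation, split. CYP734A6 (Os01g0388000) had log2 signals of -5.04, -5.18 and -6.22 on the wild-type arrays, of which 2 were well above background, and -2.21, -2.33 and -2.94 on the Line 13 arrays. It rose 7.94-fold (log2 difference 2.99, SE 0.38, limma adjusted p = 0.00111). CYP734A4 (Os06g0600400) had -2.33, -2.34 and -2.93 in wild type against -5.73, -4.57 and -5.37 in Line 13, 2 of them well above background. It fell 6.46-fold, by 2.69 on the log2 scale (SE 0.35, limma adjusted p = 0.00122). The groups lay apart in both genes, in opposite directions. The remaining member, CYP734A2, was well above background on no array and was not tested. The dim side of both genes was near background, and under the normexp background correction the differences shrank to 1.35 and -1.17, although both stayed past the threshold.

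Of 3 other genes of perception, only SERK2 (Os04g0457800), a co-receptor kinase related to BAK1, was called. Its log2 signals were 1.999, 1.93 and 1.66 in wild type against 0.46, 0.55 and 0.54 in Line 13, which were closer to one another than the wild-type arrays were. It was 2.55-fold lower (log2 difference -1.35, SE 0.18, limma adjusted p = 0.00139), and all 3 of its probes were called lower, by -1.21 to -1.35. The BRI1 to SERK2 ratio was 20.2-fold higher on the Line 13 arrays. The receptor homologues BRL1 and BRL3 had differences of -0.60 (SE 0.70) and -0.43 (SE 0.37) and were not called. BRL3 was called lower under quantile normalization (-0.99).

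Between the receptor and the nucleus, 2 of 7 genes rose and none fell. GSK2 (Os05g0207500), the kinase that phosphorylates BZR1 and DLT, had log2 signals of -5.20, -4.93 and -4.79 in wild type against -2.20, -3.34 and -3.74 in Line 13. The groups did not overlap, and the difference was 1.88 (SE 0.41, limma adjusted p = 0.00895). Under quantile normalization it was 1.30 and under the normexp background correction 0.89, with the call lost in both. The G protein alpha subunit gene RGA1 (Os05g0333200), known for its dwarf mutant d1, rose by 0.94 (SE 0.29, limma adjusted p = 0.0305), and 6 of its 7 probes were called higher. Its call was lost without any 1 wild-type array (0.92 to 0.97), without Line 13 replicate 2 (1.01) and with arrays scaled to their medians (0.63). The second kinase gene GSK1 (Os01g0205700) had a difference of 1.11 (SE 0.48, limma adjusted p = 0.0943), and without Line 13 replicate 3 it was called, at 1.54. The phosphatase gene PPKL1, the ubiquitin ligase gene TUD1, the 14-3-3 protein gene GF14c and GW5, whose product binds GSK2, had differences from -0.20 to 0.58 and were not called. The 6 probes of GF14c ranged from -0.93 to 0.34.

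**Figure D4:**
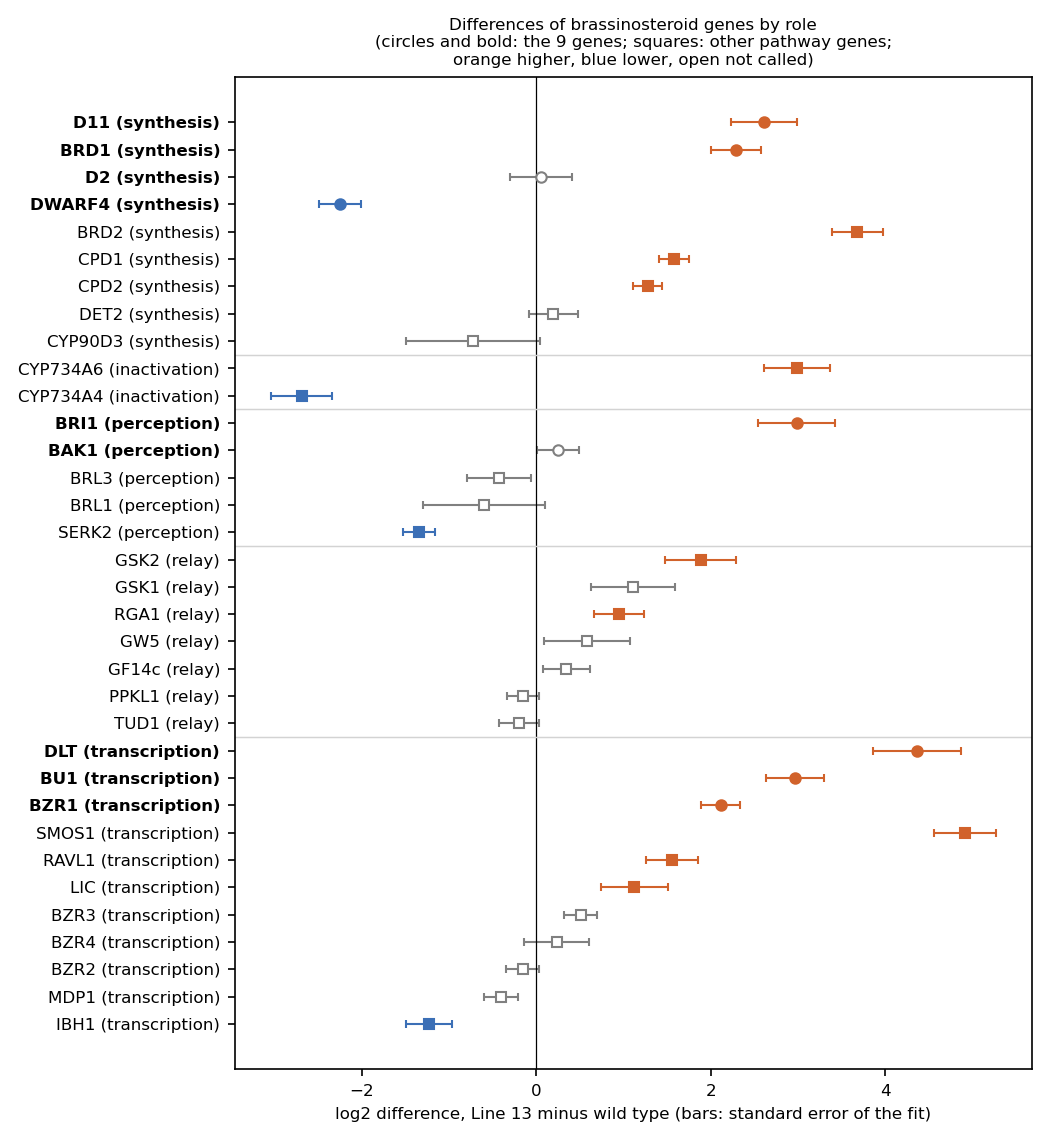
Log2 difference, Line 13 minus wild type (horizontal axis), with the standard error of the fit, for the 9 genes (circles, bold names) and the 25 other pathway genes tested (squares), grouped by role. Orange marks genes called higher, blue genes called lower and open symbols genes not called. Called genes lie on both sides of 0 within synthesis, inactivation, perception and transcription.

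Of 8 other genes that act on transcription, 3 rose and 1 fell. SMOS1 (Os05g0389000), an AP2-type factor whose protein is known to bind DLT, had log2 signals of -4.23, -4.05 and -3.71 in wild type against 1.63, 0.72 and 0.41 in Line 13. It was 30.2-fold higher (log2 difference 4.91, SE 0.35, limma adjusted p = 9.7e-05), the largest difference among the 34 pathway genes tested. With a normexp background correction the difference was 3.85, a 14.4-fold higher signal. SMOS1 and DLT thus had the top 2 differences, and the ratio between them differed by 0.55 on the log2 scale, with overlapping groups (exact permutation p = 0.2), while under normexp it differed by 0.90 and the groups lay apart. RAVL1 (Os04g0581400), a B3-domain factor known to activate BRI1 and synthesis genes in rice, rose by 1.55 (SE 0.30, limma adjusted p = 0.00582). It was not called under quantile normalization (1.002) or the normexp background correction (0.76). LIC (Os06g0704300), a zinc-finger protein that opposes BZR1, rose by 1.12 (SE 0.38, limma adjusted p = 0.0438). That call was lost under 8 of 15 alternatives, among them the normexp background correction (0.41) and leaving out any 1 wild-type array (1.02 to 1.27) or Line 13 replicate 2 (1.25).

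IBH1 (Os04g0660100), a helix-loop-helix protein that inhibits blade bending, fell. Its log2 signals were -0.079, -0.071 and 0.10 in wild type against -1.73, -1.15 and -0.85 in Line 13, with no overlap. It fell by 1.23 on the log2 scale (SE 0.26, limma adjusted p = 0.00867), to a 2.34-fold lower signal. The BZR1 homologues BZR2, BZR3 and BZR4 had differences of -0.16 (SE 0.19), 0.51 (SE 0.19) and 0.23 (SE 0.37) and did not pass the test, although BZR3 was called in the authors' deposited values. The BZR1 to BZR2 ratio was 4.83-fold higher on the Line 13 arrays, and its groups did not overlap. MDP1 (Os03g0186600), a MADS-box repressor of brassinosteroid responses, had -0.40 (SE 0.20) and was called lower, at -0.72, with arrays scaled to their medians.

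The profiles most like those of DLT and DWARF4 were sought among 17936 other loci well above background on all 6 arrays, as the smallest root mean square distance between log2 profiles centred on their own mean. Nearest to DLT were Os10g0497600 at 0.135 log2 units, with a difference of 4.38 (SE 0.51), and Os03g0802900 at 0.162, with 4.48 (SE 0.39). Nearest to DWARF4 were Os07g0558300 at 0.137, with -2.08 (SE 0.29), and the photosystem I antenna locus Os02g0197600 at 0.152, also with -2.08 (SE 0.23). The last is one of the green-leaf markers above. With 6 arrays in 2 separate groups, such likeness mostly repeats the group difference.

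**Figure D5:**
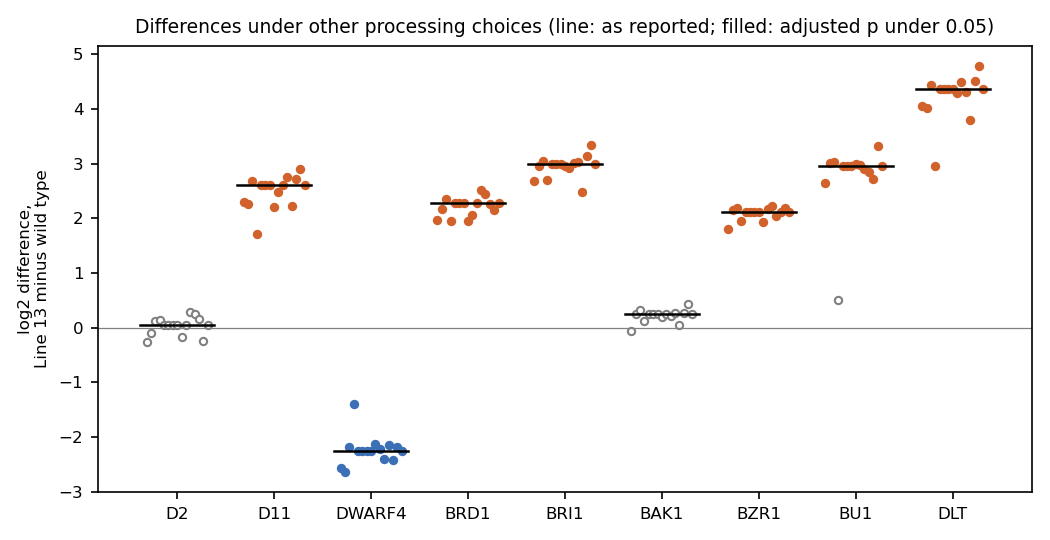
Log2 difference, Line 13 minus wild type (vertical axis), of the 9 genes as reported (black line) and under each processing alternative (points, filled where the adjusted p was under 0.05). Points of 7 genes stay on one side of 0 and those of D2 and BAK1 lie on both, and the lowest point of BU1, at 0.50, is that of the normexp background correction.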

How the data were processed

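RNA (100 ng a sample) was labelled with Cy3 and hybridised for 17 h at 65 °C, per the labels' protocols. The deposited processed intensity was made with Agilent Feature Extraction 10.10.1.1, per the file headers, with background subtraction and detrending inside each array, on a linear scale with none between arrays. Intensity in the authors' deposited value table equals that signal times a constant for each array (1.61 to 7.66), whose basis the sources used here do not state.

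Outlier spots were left out and repeated spots averaged. The log2 intensity minus the array's 75th percentile went into limma 3.58.1 (R 4.3.3, 2 groups, no block). A probe was tested where at least 50% of its spots were well above background on all 3 arrays of a group, and a locus took its probe with the highest mean. For BU1, a floor taken from averaged probes instead of spots would put the bound at 4.01-fold. The steps were tested on simulated data. The number of arrays limits the precision. The p-values set the group difference against the spread between arrays of a group, which holds pools of plants together with labelling and hybridisation. They do not separate group from slide, and a single transgenic line was used.

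The 9 genes, the pathway list and the marker lists were chosen with earlier results of these data known. All 9 genes and every called pathway gene are named. Gene names and roles are general knowledge, since the reference table matched 0 of 28855 loci, and no genome position or sequence is given. Of 27 pathway loci listed, ILI1 was not analysed here. The planned normexp correction was run on median signals.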

Additional observations from a re-analysis of the deposited data

How the results depend on the processing

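Each of the 9 differences was recomputed under up to 15 alternatives. For scaling and background these were array medians, quantile normalization, the authors' value table and a normexp background correction. The normexp correction used median signals, which was an addition to the plan, and added an offset of 50 units to every signal. Further alternatives were a filter dropped or set on all 6 arrays, outlier spots kept and the mean of the probes of a locus. Each array was also left out in turn, and a replicate block was fitted. Each locus kept its reported probe wherever that probe passed the filter. D11, DWARF4, BRD1, BRI1, BZR1 and DLT kept their direction and their call under all 15, and BU1, which the filter on all 6 arrays removes, kept its call under 13 of 14. Normexp gave 1.72 for D11, -1.39 for DWARF4, 2.96 for DLT and 0.50 for BU1. The sign of D2 turned with array medians (-0.26) and quantile normalization (-0.096), and with each array left out its value lay between -0.24 and 0.29. That of BAK1 turned with array medians (-0.066). The cause of these turns was not tested beyond the shift of the median of all features, by -0.31 with array medians and by -0.18 under quantile normalization, which also took the share of higher calls among all calls from 48.9% to 36.0% and 41.8%. Of the 12 called pathway genes, GSK2, RAVL1, LIC and RGA1 lost their call under at least 1 alternative, CYP734A4 and CYP734A6 were not tested with the filter on all 6 arrays, and the other 6 kept theirs under all 15. Higher pathway genes numbered 6 to 10. Replicates of equal number did not deviate together across the groups (correlations 0.11, -0.025 and -0.0048), and the replicate block gave 10900 calls over all features against 12172, with 6 of the 9 genes higher and 1 lower as without it. Normexp was planned on mean signals, which could not be run here. A slide block could not be fitted, since slide and group coincide.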
